A study of Mus musculus with 38 samples.

Results

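Exon and 5' UTR peaks are stretches of open chromatin that lie inside the transcribed, spliced part of genes. They were taken from an ATAC-seq table of the mouse cortical collecting duct (CCD) by the annotation printed there for each peak, which begins with "exon" or "5' UTR", and no measured value entered the choice. Of 270806 peaks, 9457 met this rule: 2271 were annotated to a 5' UTR, 3140 to exon 1 or 2 and 4046 to a later exon. A gene symbol could be read from the annotated transcript for 9438 of them, which lay in 6557 genes, and 19 had none. Of these genes, 4610 held 1 such peak and 1947 held more, up to 11.

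CCDs had been microdissected from kidneys of C57BL/6 mice infused for 5 days with saline, titled vehicle, or with dDAVP (desmopressin), an agonist of the vasopressin V2 receptor; the age of the mice was not given. ATAC-seq covered 3 vehicle and 3 dDAVP libraries, each transposed from 3 hand-dissected ducts, and RNA-seq covered 4 vehicle and 4 dDAVP libraries. The study's design text describes a model of vasopressin excess without low plasma sodium, so the comparison asks what 5 days of V2 agonist did to chromatin and RNA of this segment. A further RNA-seq table, used only for the level of each host gene, gave 4 wild-type units of 3 libraries, whose labels conflict on whether dDAVP had been given. The labels do not say which libraries came from separate animals, so p-values measure the spread between libraries, which may be partly technical.

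ATAC-seq cuts DNA with a transposase where nucleosomes are absent or displaced, and active gene starts are the most regular sites of such opening. The 5' UTR and the first exon begin at the start site, so a peak annotated to them often belongs to the same open region as the promoter upstream of it. Exons deeper in a gene are usually wrapped in nucleosomes, and an open site within one may be an enhancer, an inner promoter or a binding site of a structural factor. In the CCD, principal cells take up water through aquaporin-2 under the control of vasopressin, cAMP and protein kinase A, and sodium through the epithelial sodium channel, while intercalated cells move acid and base.

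Sequence was available as RefSeq promoter windows on GRCm38.p6 (mm10), from 250 bases before to 50 after a start site; 2156 of 32851 windows lay in an exon or 5' UTR peak over at least 150 bases, and these windows touched 1885 of the peaks (19.9%). Their GC content had a median of 61.7%, against 52.7% over all windows, and their observed over expected CpG ratio was 0.75 against 0.38. The first set below shows the last 30 bases before the start of genes whose peak is among the strongest (Ints6, Actn1, Nmt2), of a pair whose peak was called higher with dDAVP (Adgra1, Gas2), and of Btc and Foxi1, whose peak was called lower. CpG pairs are in capitals, and each is read 5′ to 3′ on the strand of its gene.
Ints6, chr14:62761113-62761142, minus strand: aagCGcttcagtagCGagaggggctgagaa
Actn1, chr12:80260364-80260393, minus strand: gctccCGcagCGCGagtgttcactgagagc
Nmt2, chr2:3284182-3284211, plus strand: CGagactCGgtgccCGagggtgggCGgcac
Adgra1, chr7:139834144-139834173, plus strand: gCGcctcccccagtccccatggttacagct
Gas2, chr7:51878937-51878966, plus strand: aaccacatttgctgtccagcaagggggaaa
Btc, chr5:91402995-91403024, minus strand: gggcagctgggtgggagcagCGtgcaggct
Foxi1, chr11:34208090-34208119, minus strand: tataagtcacaggaggccaggacctgctga

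Over the whole 300 bases, the CpG ratio was 0.71 at Ints6, 0.69 at Actn1 and 0.85 at Nmt2. It was 0.69 at Adgra1 and 0.20 at Gas2, 0.19 at Btc and 0.23 at Foxi1. CpG-poor and CpG-rich starts thus stood on both sides in these examples, but only 2 windows in all lay in peaks called higher. Across 5' UTR and exon 1 or 2 peaks, the median ratio was 0.80 in 1308 windows of peaks called lower. It was 0.68 in 829 windows of peaks not called lower, with a GC content of 63.7% and 58.7%. These differences were not tested.

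The cAMP response element (CRE), TGACGTCA, is the site bound by CREB and its relatives, which protein kinase A phosphorylates. It was searched on both strands, which for this palindrome are the same letters. It occurred in 73 of the 2156 windows in these peaks (3.39%) and in 1.79% of all windows. The element holds a CpG pair, and windows in these peaks were richer in GC and CpG than all windows. No motif was compared among windows of like GC and CpG content. Below are the 30 bases around it in the 6 peaks of highest vehicle signal that hold it (a choice made after their values were seen) and in Nr2e1, whose peak is among the largest losses; the element is in capitals.
Mlf2, chr6:124931368-124931397, plus strand: gccgtccgtcgTGACGTCActtccgttcgg
Retreg1, chr15:25843139-25843168, plus strand: gcggccaggccTGACGTCAcaaggcaccca
Ing3, chr6:21949515-21949544, plus strand: caccggccggtTGACGTCAtcgctgcagac
Rab5a, chr17:53479195-53479224, plus strand: agcggcggaaaTGACGTCAcggcgttcttc
Tesk1, chr4:43442173-43442202, plus strand: ccgggatccagTGACGTCAcgcaaccctag
Irf2bpl, chr12:86884826-86884855, minus strand: gagcatggcggTGACGTCAgcgctccgccc
Nr2e1, chr10:42583697-42583726, minus strand: ccgcacatggcTGACGTCAgaccccgccag

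Peaks whose promoter window held this element and peaks whose window did not had similar fold changes. Among 5' UTR and exon 1 or 2 peaks with a window, medians of the authors' deposited log2 fold changes were compared. They were -0.54 in 63 peaks whose window held a CRE and -0.51 in 1806 with a window that did not. Of these, 71.4% and 60.2% were called lower. For the strongest peaks, at a log2 signal of 7 or more, the medians were -0.54 in 53 and -0.52 in 1449, with 77.4% and 68.3% called lower. These differences were not tested. Only the windows were searched, so a peak without a match may hold a CRE elsewhere. A window need not lie wholly in its peak, so a CRE can lie outside the peak. A peak with windows of both kinds was counted on both sides. The Rab5a peak of the authors' deposited table, at the start of an early endosome GTPase, had a vehicle signal of 9.75, a dDAVP signal of 9.05, a log2 fold change of -0.59 and an adjusted p of 0.000144. The shorter core TGACG, which is part of the CRE, was in 30.8% of windows in these peaks and 20.8% of all. TGANTCA, the AP-1 site of Fos and Jun proteins, was in 4.73% against 7.81%, AGATAA, which GATA factors bind, in 4.82% against 11.2%, and a core of the CTCF site in 12.8% against 7.80%. The remaining motifs were rare: the HNF1 and NFI sites were in 0 of the 2156 windows and AACCGGTT, the grainyhead site, in 0.139% of them, against 0.146% of all. All were searched on both strands. A match describes letters and not binding.

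Peaks at the beginning of genes were wider and stronger than peaks in later exons. Signal is the log2 of the mean normalised signal of a peak, given in the authors' deposited table as a mean over the libraries of a group, with a floor of 0; it is not divided by length. Median widths were 759 bases for 5' UTR peaks, 349 for exon 1 or 2 and 165 for later exons, and the median signals over all libraries were 6.59, 4.74 and 2.54. Per 100 bases the order was kept, at 3.78, 3.04 and 1.85. Introns, with a width of 170 and a signal of 2.72, and intergenic peaks, with 172 and 2.55, resembled the later exons in these 2 measures, and promoter-TSS peaks, with 313 and 4.62, resembled exon 1 or 2.

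Position followed the same division. A start site of the host gene was listed for 7329 peaks: 89.5% of 5' UTR peaks and 68.1% of exon 1 or 2 peaks lay within 1000 bases of it, with medians of 217 and 530 bases, against 1.75% of later-exon peaks, with a median of 23554 bases. The gene named by the nearest start in the deposited table differed from the gene whose exon held the peak in 1909 peaks, 42.4% of those in later exons and 3.68% of the others. The peak in exon 23 of 25 of Sik3, for example, carries the name Apoa1 there. All genes given here are host genes.

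With dDAVP, signal was lower at the beginning of genes, and few of these peaks were higher. In the authors' deposited table, at an adjusted p of 0.05 or less, 1954 of the 9457 peaks (20.7%) were called lower, where 5.98% of all peaks were, and 43 (0.455%) were called higher, where 0.846% of all were; 6.82% of all peaks were called in either direction. The share called lower was 36.2% for 5' UTR peaks (822), 27.8% for exon 1 or 2 (872) and 6.43% for later exons (260); it was 25.8% for promoter-TSS, 4.02% for intron and 3.39% for intergenic peaks. Calls in the other direction numbered 9, 4 and 30, or 0.396%, 0.127% and 0.741% of each class. Most peaks called higher thus lay in later exons, the largest class, at a share below the 0.846% of all peaks. The median log2 fold changes were -0.48, -0.50 and -0.15, and -0.17 over all peaks. Relative to that last value, 81.3% of 5' UTR peaks, 77.5% of exon 1 or 2 peaks and 48.5% of later-exon peaks lay below 0. No test of the difference between classes was made, since peaks of a gene share their chromatin and the same libraries.

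The boundary between early and later exons was not sharp. In exon peaks, the share called lower in the authors' deposited table was 35.2% in exon 1, 13.7% in exon 2, 8.31% in exon 3, 7.57% in exons 4 to 5, 6.13% in exons 6 to 10, 5.81% in exons 11 to 20 and 4.46% from exon 21 on. Exon 2 and exon 3, on either side of the division, thus stood closer to each other than exon 1 did to exon 2. Peaks at the floor of 0 in vehicle went the other way, though a listed 0 need not mean that signal was absent. In vehicle 3.12% of exon 1 peaks were listed at 0, 7.26% in exon 2, 13.1% in exons 4 to 5 and 17.3% from exon 21 on. With dDAVP the shares at 0 stayed between 2.39% and 4.83% over the same exons. Over all later-exon peaks, 559 (13.8%) were at 0 in vehicle and 164 (4.05%) with dDAVP. These shares were 8.79% and 4.39% for introns, 11.9% and 5.37% for intergenic peaks, and 9.46% and 4.67% over all peaks. By distance, 36.9% of exon 1 or 2 peaks within 1000 bases of the host start were called lower, and 11.5% of those farther away.

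**Figure D1:**
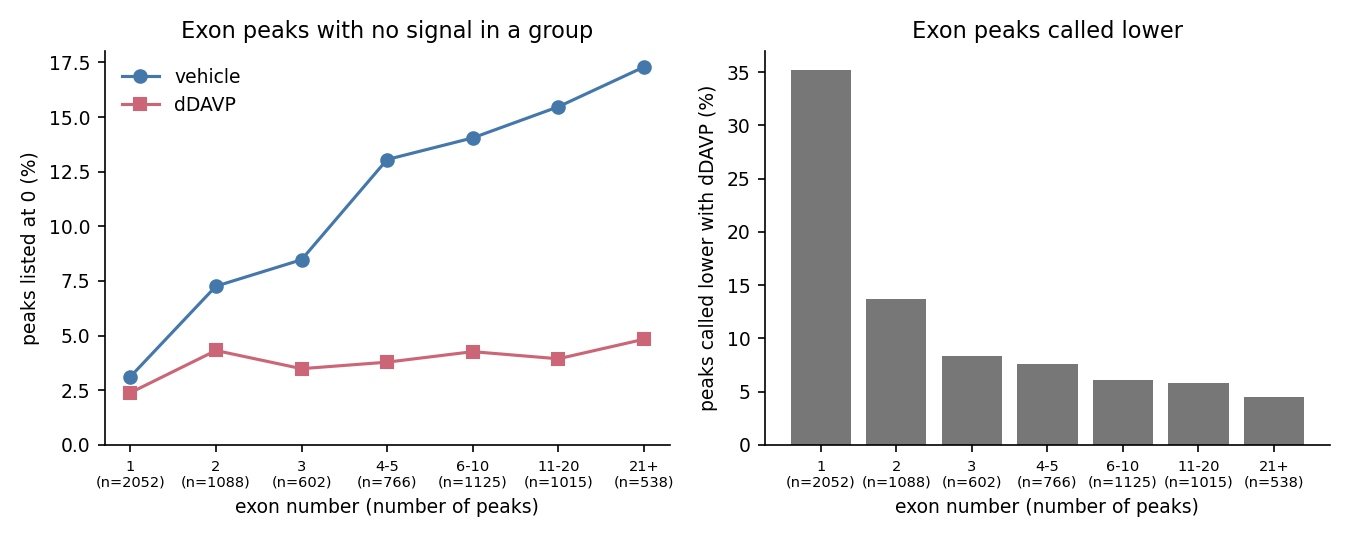
Exon peaks by exon number, with the number of peaks under each bin; the left panel gives the percent listed at 0 in the vehicle (circles) and dDAVP (squares) group mean, the right panel the percent called lower with dDAVP at an adjusted p of 0.05. The vehicle line climbs from 3.12% to 17.3% while the dDAVP line stays below 5%, and the share called lower drops from 35.2% to 4.46%.

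Much of this order ran along signal strength. Peaks of the authors' deposited table at a signal of 7 or more had median log2 fold changes of -0.51 (5' UTR, 1055 peaks), -0.53 (exon 1 or 2, 937) and -0.53 (later exons, 188), and 68.2%, 68.0% and 63.8% of them were called lower. Intron and intergenic peaks of that strength had -0.47 and -0.45, with 44.3% and 38.9% called lower. Strong later-exon peaks therefore had values like those of strong peaks at gene starts. Below a signal of 2, the medians came apart: 0.82 in later exons, 0.38 in introns, 0.47 between genes, 0.08 in exon 1 or 2 and -0.09 in 5' UTRs. Of these weak later-exon peaks, 34.3% were at 0 in vehicle and 10.1% with dDAVP, against 16.5% and 14.7% of weak 5' UTR peaks. No peak in any of the 3 classes below a signal of 2 was called lower, and 14 were called higher.

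**Figure D2:**
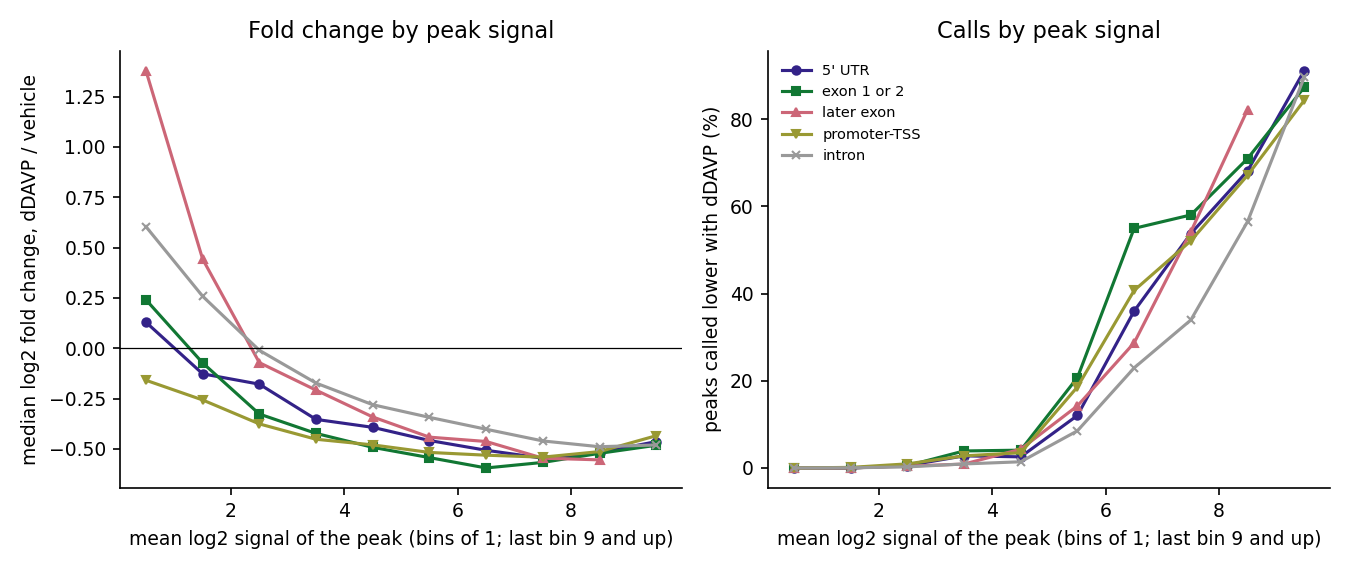
Median log2 fold change (left) and percent of peaks called lower (right) against the mean log2 signal of the peak, in bins of 1 unit, for 5' UTR, exon 1 or 2, later-exon, promoter-TSS and intron peaks; bins with fewer than 20 peaks are not drawn. All lines on the left draw together near -0.5 at high signal, and the later-exon line is the highest in the weakest bin, at 1.38.

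Within a bin of equal signal, exon 1 or 2 peaks were not called lower more often throughout. The gap in the share called lower, 21.3 percentage points over all signals, was 26.3 points between signals 6 and 7, where 54.9% and 28.7% were called. It was 3.85 points between 7 and 8, and between 8 and 9 later exons stood higher, at 82.1% of 56 peaks against 70.9% of 437. Once each peak was set against the median of all peaks of like signal, medians were -0.05 for 5' UTR, -0.12 for exon 1 or 2 and 0.02 for later exons.

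The same contrast appeared inside genes. For 848 genes with a peak in the 5' UTR or exon 1 or 2 and another in a later exon, the strongest of each were set side by side. The early peak was stronger in 641 genes, and the log2 fold change of the later peak was above that of the early peak in 571, with a median difference of 0.31. In the 109 genes in which both peaks had a signal of 5 or more, the medians were -0.51 and -0.46 and the later peak was the higher in 54. Both peaks were called lower in 20 genes, and in 4 the early peak was called lower and the later one higher.

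**Figure D3:**
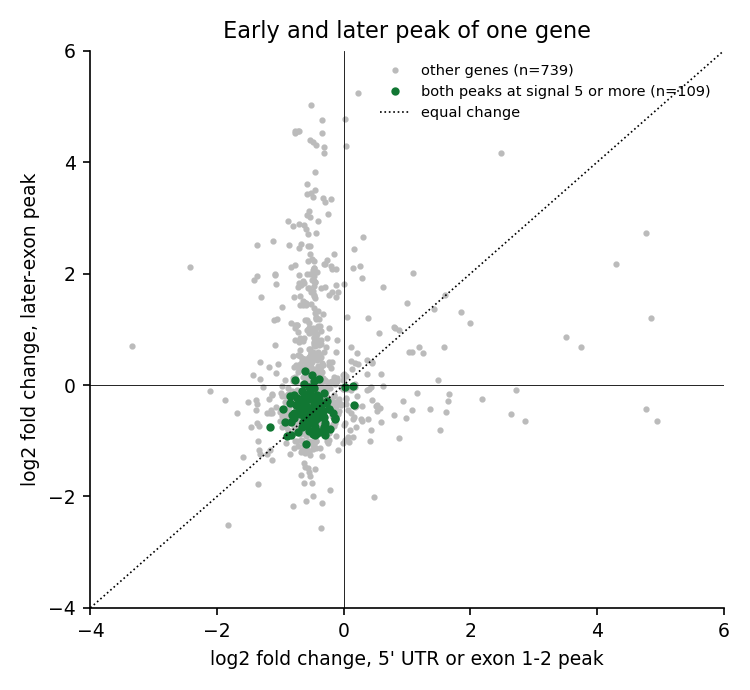
Log2 fold change (dDAVP over vehicle) of the 5' UTR or exon 1 or 2 peak on the horizontal axis and of the later-exon peak on the vertical axis, 1 point per gene for 848 genes; the dotted line marks equal change. The 109 genes with a signal of 5 or more at both peaks cluster near -0.5 on both axes, and the others spread upwards.

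The 4 strongest 5' UTR peaks stood at Zbtb5, Ppp3ca, Ints6 and Actn1. In the authors' deposited table, Zbtb5 (a zinc-finger transcription factor, chr4:45011598-45012882) went from 10.50 in vehicle to 10.16 with dDAVP, a log2 fold change of -0.23 (adjusted p = 0.0127), the smallest among the peaks called lower. Ppp3ca, the catalytic subunit of calcineurin (chr3:136669210-136671856), had 10.62 and 9.96 in the authors' deposited table (-0.54, adjusted p = 1.39e-11). Ints6, a subunit of the Integrator complex, had 10.53 and 9.95 there, and Actn1, the actin crosslinker alpha-actinin, 10.50 and 9.95. All 4 were called lower. The 4 strongest peaks in exon 1 or 2 were at Pnrc1 (a nuclear receptor coactivator, 10.36 and 9.80), Txnrd3 (a thioredoxin reductase, 10.28 and 9.85), Nmt2 (an N-myristoyltransferase, 10.19 and 9.65) and Arrdc1 (an arrestin-domain protein, 10.06 and 9.56), and these too were called lower in the authors' deposited table, with log2 fold changes from -0.45 to -0.31.

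Some later exons carried peaks nearly as strong. Exon 5 of Mgrn1, an E3 ubiquitin ligase (chr16:4913035-4914527), had, in the authors' deposited table, a signal of 9.90 in vehicle and 9.18 with dDAVP (-0.60, adjusted p = 2.02e-05), 25330 bases from the nearest listed start. Exon 13 of Plekhg5, a guanine nucleotide exchange factor, had 9.82 and 9.21, exon 38 of Cntrl, the centrosome protein centriolin, 9.74 and 9.18, and exon 7 of Def6, another exchange factor, 9.60 and 9.11 in the authors' deposited table. All 4 were called lower, with log2 fold changes between -0.60 and -0.38.

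**Figure D4:**
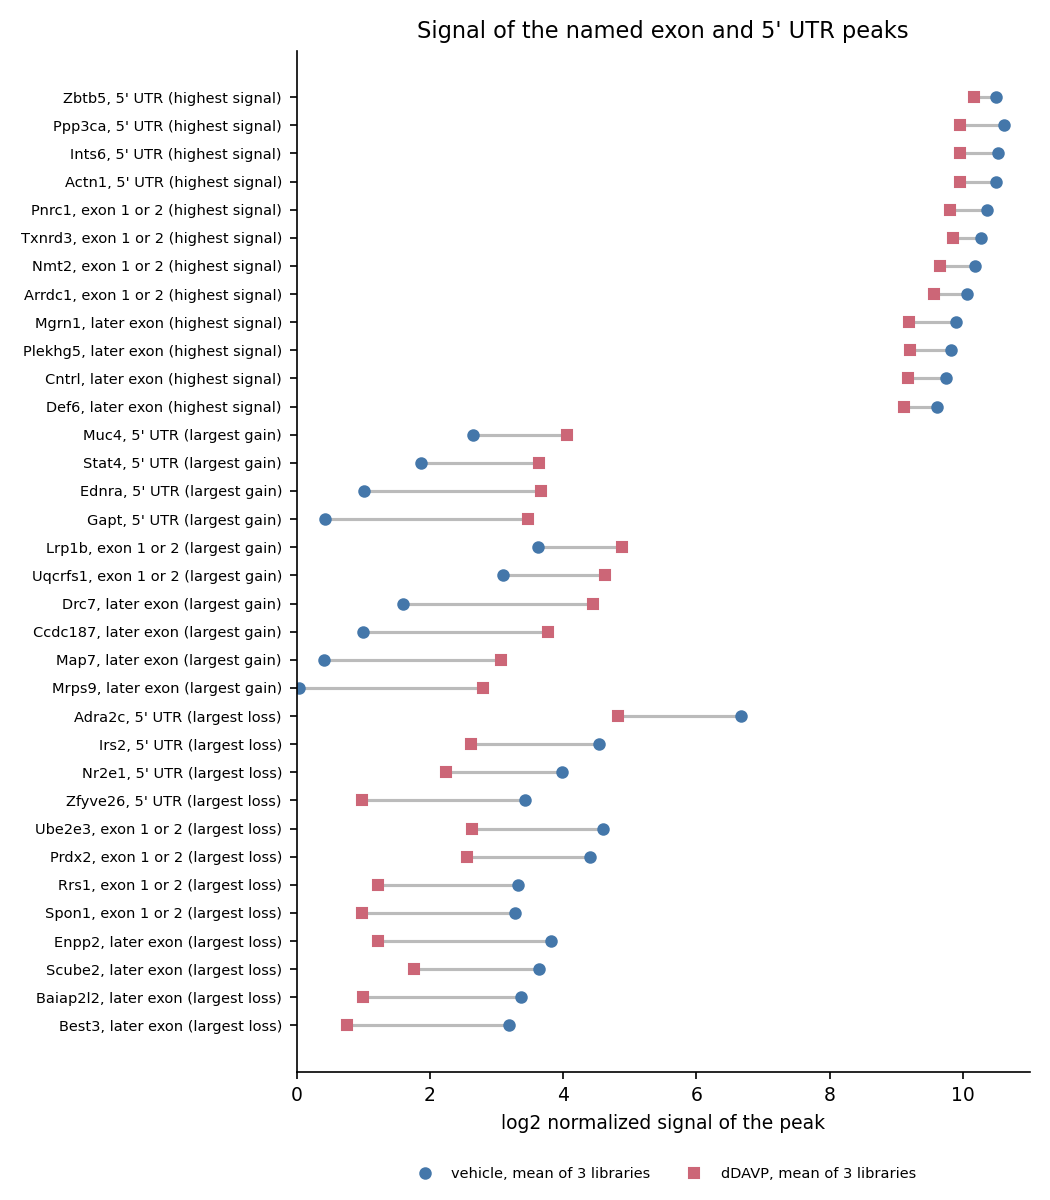
Group mean log2 signal of the peaks named by rule: the strongest, the largest gains and the largest losses of each class, with vehicle as circles and dDAVP as squares joined by a line; both are means of 3 libraries with no error bar because values per library were not analysed here. The strong peaks at the top shift by less than 1 unit, and the largest gains and losses lie at lower signal.

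Larger losses lay in weaker peaks. Called losses of the authors' deposited table ranged from -0.23 to -2.42 with a median of -0.61, and 121 of 1954 were 2-fold or more. The 5' UTR of Adra2c, the alpha-2C adrenergic receptor (chr5:35279377-35280388), had 6.67 in vehicle and 4.82 with dDAVP (-1.73, adjusted p = 5.56e-09). That of Irs2, an adaptor of the insulin receptor (chr8:11008537-11008701), had 4.53 and 2.61 in the authors' deposited table (-1.79, adjusted p = 0.00506). Nr2e1, an orphan nuclear receptor, and Zfyve26, a protein of lysosome and autophagy traffic, completed the 4 largest 5' UTR losses, at -1.60 and -2.27 there. In exon 1 or 2 the largest were at Spon1, a matrix protein (-2.11), Rrs1, a ribosome assembly factor (-1.93), Ube2e3, a ubiquitin-conjugating enzyme (-1.83), and Prdx2, a peroxiredoxin (-1.71). In later exons the authors' deposited table had exon 18 of Enpp2, the lysophospholipase autotaxin (chr15:54862488-54862867), from 3.82 to 1.22 (-2.42, adjusted p = 0.00247), Best3, a bestrophin channel gene (-2.25), Baiap2l2 (-2.19) and Scube2 (-1.73).

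The 43 peaks called higher were moderate to weak. Their highest signal over all libraries was 5.90, their median log2 fold change 2.28, and 14 of them were listed at 0 in vehicle, where the fold change depends on how the floor is treated. The strongest in the authors' deposited table was the 5' UTR of Adgra1, an orphan adhesion receptor (chr7:139834009-139834766), with 5.14 in vehicle and 6.40 with dDAVP (1.37, adjusted p = 1.08e-05). The 5' UTR of Gas2, a cytoskeletal protein (chr7:51878786-51879635), followed with 4.53 and 5.48 (1.05, adjusted p = 0.0212), then that of Bcat1, the cytosolic branched-chain aminotransferase (1.08), and exon 16 of Mprip, which ties myosin phosphatase to actin (4.02 and 5.06, 1.15), all in the authors' deposited table. Larger 5' UTR gains with signal in both groups stood at Gapt, an immune-cell adaptor (3.06), Ednra, the endothelin A receptor (2.70), Stat4, a cytokine-activated transcription factor (1.84), and Muc4, a membrane mucin (1.50). In exon 1 or 2 only 2 such gains were called, Uqcrfs1, the Rieske protein of respiratory complex III (1.64), and Lrp1b (1.37). In later exons Drc7, a subunit of the ciliary dynein regulatory complex (exon 5, chr8:95059019-95059295), had 1.59 and 4.45 (2.92, adjusted p = 1.70e-05), followed by Ccdc187 (2.81), Mrps9 of the mitochondrial ribosome (2.72) and Map7, a microtubule protein (2.65), in the authors' deposited table.

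Many of these genes had little RNA in the duct. In the second RNA-seq table the host gene was below 1 TPM (a transcript's share of all transcripts, normalised for length) for 19 of the 43 peaks called higher and at 10 TPM or more for 15. Those below 1 TPM were 6 of 9 in 5' UTRs, 2 of 4 in exon 1 or 2 and 11 of 30 in later exons. Among all peaks of these classes, the shares below 1 TPM were 24.5%, 32.0% and 29.4%. Adgra1 had a mean of 0.314 TPM over the 4 units, Drc7 0.0283 and Ednra 0.403, while Gas2 had 12.0 and Uqcrfs1 819. Of the 7 host genes of such peaks that the dDAVP RNA table lists, 0 passed there, and 35 of all 5035 listed genes (0.695%) did. At that share, 7 genes are too few to show a difference.

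By RNA level of the host gene, 5' UTR peaks were stronger at each higher step. Exon 1 or 2 peaks were stronger at each step up to 10 to 100 TPM and somewhat weaker from 100 TPM on. Later-exon peaks followed no steady order. The differences between classes were not tested. Host genes had a median of 12.0 TPM for 5' UTR peaks, 7.39 for exon 1 or 2 and 8.36 for later exons in the second RNA-seq table, with 24.5%, 32.0% and 29.4% of peaks in genes below 1 TPM. For 5' UTR peaks, the median signal was 3.27 in genes below 1 TPM, 6.44 from 1 to 10, 7.85 from 10 to 100 and 8.14 from 100 TPM on. The share called lower in the authors' deposited table was 8.30%, 32.5%, 48.8% and 58.4% over the same steps. For later-exon peaks the signals were 2.48, 2.60, 2.44 and 3.58, and the shares called lower 5.99%, 8.06%, 5.42% and 8.14%. In exon 1 or 2 the signals were 2.73, 5.14, 6.77 and 6.18, and the shares 9.99%, 30.6%, 39.9% and 34.3%.

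Genes of the collecting duct and of its signalling pathways were followed through fixed lists. Every count below is to be read against the 20.7% of all exon and 5' UTR peaks called lower; the lists were not tested as sets and differ in their mix of classes and signal. Among principal cell genes, peaks of the sodium channel gene Scnn1a and of Hsd11b2 were called lower. In the authors' deposited table, 3 of 15 peaks (20.0%) in 8 of 11 listed principal cell genes were called lower and 0 higher, with a median of -0.43, so the share was near that of all exon and 5' UTR peaks. The 5' UTR of Scnn1a, the alpha subunit of the epithelial sodium channel (chr6:125321011-125321923), had 9.54 in vehicle and 8.93 with dDAVP (-0.49, adjusted p = 0.00408). Hsd11b2, the enzyme that keeps cortisol and corticosterone from the mineralocorticoid receptor, had a 5' UTR peak at 9.40 and 8.68 (-0.60, adjusted p = 0.00103) and an exon 3 peak (chr8:105522452-105522601) at 6.53 and 5.35 (-1.06, adjusted p = 0.000412) in the authors' deposited table. Aqp2, the vasopressin-regulated water channel, held a single member in exon 4 of 4, its last exon (chr15:99583929-99584099), at 5.93 and 5.28 (-0.53, adjusted p = 0.193, not called). The exon 2 peak of Avpr2, the V2 receptor itself, had 7.05 and 6.60 (-0.34, adjusted p = 0.314) in the authors' deposited table.

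In intercalated cell genes the share was also near that level: 3 of 13 peaks (23.1%) in 8 of 12 genes were called lower and 0 higher, with a median of -0.50. These were exon 1 of Foxi1, the transcription factor that specifies these cells (8.01 and 7.26, -0.63, adjusted p = 0.0152), exon 2 of Rhcg, an ammonia transporter (7.33 and 6.45, -0.77, adjusted p = 0.00389), and exon 6 of Insrr, the alkali-sensing insulin receptor-related receptor (5.31 and 4.15, -1.03, adjusted p = 0.047), in the authors' deposited table. RNA of the 12 intercalated genes also differed in sum, at 7062 to 8832 TPM in the 4 vehicle libraries and 4278 to 5739 TPM in the 4 dDAVP libraries, without overlap. The sum over the 11 principal cell genes, Aqp2 the largest among them, went the other way, from 31507 to 35189 TPM in the vehicle libraries and from 69247 to 92684 TPM with dDAVP, and TPM values of a library share 1 total. In ducts of mixed cells, fewer cells of a type and less RNA or open chromatin per cell cannot be told apart. Rhcg RNA was 2494, 2604, 2190 and 2970 TPM in the vehicle libraries and 1586, 1782, 1835 and 1545 with dDAVP, and Foxi1 RNA overlapped between groups; neither passed (limma adjusted p = 0.104 and 0.643).

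The pathway from the V2 receptor was represented by 33 peaks in 18 of 30 listed cAMP and protein kinase A genes, of which 7 (21.2%) were called lower, again near the share of all these peaks, and 1 higher. The losses in the authors' deposited table were at the 5' UTRs of Adcy9, an adenylyl cyclase (-0.69), Akap9 and Akap13, which anchor the kinase (-0.68 and -0.44), Pde7a, a phosphodiesterase (-0.58), Prkacb, a catalytic subunit (-0.62), and Crem, a CRE-binding factor (-0.41), and at exon 1 of Crtc3, a coactivator of CREB (-0.50). Adcy6, a cyclase of the collecting duct, had -0.43 at exon 2 (adjusted p = 0.129). The gain was exon 23 of Sik3, a kinase that protein kinase A inhibits (chr9:46220162-46220520), from 1.41 to 3.43 (2.08, adjusted p = 0.013), in the authors' deposited table. Of 10 peaks in 7 of 21 AQP2 trafficking genes, 2 (20.0%) were called lower, Rab5a and the membrane fusion protein Stx4a (-0.63).

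Immediate early genes, which cells switch on within minutes of a stimulus, had a median of -0.61 over 17 peaks, 7 of them (41.2%) called lower and 0 higher. In the authors' deposited table exon 1 of Fosl1 (chr19:5447400-5448656) had 7.46 in vehicle and 6.32 with dDAVP (-1.03, adjusted p = 6.58e-05), the 5' UTR of Fosb 5.82 and 4.65 (-1.05, adjusted p = 0.00957), and that of Egr2 4.06 and 2.52 (-1.41, adjusted p = 0.0415). The 5' UTR of Jun, exon 2 of Myc and a pair of peaks at Jund were also called lower there. Peaks not called were exon 1 of Jun (-0.16, adjusted p = 0.700), the 5' UTR of Myc (-0.55, adjusted p = 0.0510) and exon 1 of Fos (8.11 and 7.49, -0.51, adjusted p = 0.0569), among others. Fos RNA was 643, 2001, 938 and 2076 TPM in the vehicle libraries and 152, 1715, 96.8 and 60.0 TPM with dDAVP. The second dDAVP library lay within the vehicle range and the other 3 below it (limma adjusted p = 0.26).

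Wnt and β-catenin genes held 38 peaks in 16 of 29 genes, 13 (34.2%) called lower and 0 higher, with a median of -0.52. In the authors' deposited table they included the receptors Fzd1 (5' UTR, -0.37), Fzd6 (5' UTR, -0.79), Fzd5 and Fzd8, the coreceptors Lrp6 (exon 1, -0.87) and Lrp5 (exon 13 of 23, -0.76), Axin1 of the β-catenin destruction complex (-0.49), and the nuclear partner Tcf7l2 (exon 3 of 14, -0.89). Of 26 peaks in 14 of 22 kidney transcription factors 4 (15.4%) were called lower, at Emx1, Foxi1, Gata2 (exon 6 of 6, -0.69) and Tfap2a (exon 7 of 8, -0.66). Exon 3 of Ehf, an epithelial ETS factor, had 5.96 and 6.04 (0.20, adjusted p = 0.673) in the authors' deposited table. Hox genes, which hold body position, gave 42 peaks in 24 of 39 genes, with 4 (9.52%) called lower: Hoxb2, Hoxb4, Hoxd4 and Hoxd10 (-0.65, -0.68, -0.88 and -0.62). Both of these shares were below that of all exon and 5' UTR peaks.

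Markers of other cell types held 16 peaks, none called in the authors' deposited table, and their values went both ways. Immune markers had no member peak, Cubn of the proximal tubule had 1, and podocyte, stroma and endothelium had 6 in all. The strongest lay in exon 17 of Trpm6, a magnesium channel of the distal convoluted tubule (7.92 and 7.33, -0.48, adjusted p = 0.0894), and in the 5' UTR of Ppp1r1b, listed for the thick ascending limb (5.88 and 5.43, -0.33, adjusted p = 0.491), in the authors' deposited table. All 4 exon peaks of Umod, made by the thick ascending limb, were at 0.00 to 1.25 in vehicle and 1.72 to 2.41 with dDAVP, and 2 of 3 exon peaks of Slc12a3, the distal convoluted tubule salt transporter, had 0 in vehicle and 1.42 and 1.71 with dDAVP. In RNA, 11 of 11 principal and 12 of 12 intercalated markers were listed in the dDAVP table. Umod, the 1 thick ascending limb marker listed there, ranged from 84.1 to 825 TPM in vehicle and from 21.0 to 5253 TPM with dDAVP, and the 1 proximal tubule marker from 27.2 to 2286 and from 44.2 to 217 TPM. The part of these cells in the gains at later exons was not tested.

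RNA of the genes that hold these peaks changed in few cases. Of 5035 genes in the dDAVP RNA table, which lists only genes above 10 TPM in every library, 35 (0.695%) passed limma at an adjusted p of 0.05, 28 higher (0.556%) and 7 lower (0.139%). Among the 1719 that hold an exon or 5' UTR peak, 16 (0.931%) passed, 11 higher and 5 lower. The median RNA log2 fold change was -0.11 in 651 genes with an early peak called lower, -0.09 in 604 with early peaks none of which was called lower, and -0.06 over all genes. The 16 fell to 9 without vehicle library 1 or 2, to 8 without dDAVP library 1 or 4 and to 4 without dDAVP library 3.

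At these 16 genes, 21 member peaks were measured, 4 (19.0%) called lower and 0 higher in the authors' deposited table, near the 20.7% of all exon and 5' UTR peaks, in genes whose RNA moved either way. Scnn1a RNA was 262, 270, 278 and 317 TPM in the vehicle libraries and 118, 152, 164 and 120 TPM with dDAVP, so the groups did not overlap. It fell by 1.03 ± 0.17 on the log2(TPM + 1) scale (standard error, n = 4 and 4, limma adjusted p = 0.0215), and its 5' UTR peak was called lower (-0.49). Most peaks of that strength were: over all peaks at a signal of 9 or more, 86.0% were called lower, with a median of -0.45. Slc16a5, a monocarboxylate transporter, had 217, 177, 153 and 217 TPM and then 75.2, 79.3, 85.5 and 50.0 TPM. Its RNA fell by 1.40 ± 0.23 (limma adjusted p = 0.019), and its 5' UTR peak went from 8.53 to 7.80 (-0.62, adjusted p = 0.00834) in the authors' deposited table. Over all peaks at a signal from 8 to 9, the median was -0.50 and 62.3% were called lower. The RNA call was lost with any 1 dDAVP library, or vehicle library 1 or 2, left out for Scnn1a, and without vehicle library 1 or 2 or dDAVP library 1 or 3 for Slc16a5 (highest limma adjusted p = 0.0933 and 0.0865).

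Crem and Btc rose in RNA, and their first-exon peaks were called lower, as most strong peaks at gene starts were. Crem RNA was 49.8, 112, 49.8 and 34.0 TPM in vehicle and 330, 375, 403 and 315 TPM with dDAVP, every dDAVP library above every vehicle library. It rose by 2.65 ± 0.31 (limma adjusted p = 0.0028), while its 5' UTR peak went from 9.77 to 9.25 (-0.41, adjusted p = 0.00646) in the authors' deposited table. Over all peaks at a signal of 9 or more, the median was -0.45 and 86.0% were called lower. The Crem peak was thus near the median of peaks of its strength. Btc, an EGF-family growth factor, had 65.2, 50.7, 101 and 121 TPM and then 294, 274, 317 and 259 TPM, also without overlap. Its RNA rose by 1.82 ± 0.26 (limma adjusted p = 0.011, and 0.0596 without dDAVP library 3). Its exon 1 peak (chr5:91402150-91403256) went from 9.33 to 8.49 (-0.73, adjusted p = 9.21e-05) in the authors' deposited table, and that of exon 2 from 3.66 to 3.89, not called.

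The other genes that passed had no called peak. Aqp2 RNA was 20212, 21874, 20524 and 18074 TPM in vehicle and 51774, 58027, 72251 and 61434 TPM with dDAVP, a rise of 1.59 ± 0.18 (limma adjusted p = 0.0028). Id2, an inhibitor of basic helix-loop-helix factors, had 580, 648, 400 and 649 TPM and then 186, 200, 123 and 163 TPM, a fall of 1.75 ± 0.21 (limma adjusted p = 0.0032), and its exon 1 peak had -0.30 (adjusted p = 0.577) in the authors' deposited table. Niban1, with 40.2, 34.4, 66.8 and 27.8 TPM and then 255, 255, 233 and 166 TPM, rose by 2.45 ± 0.28 (limma adjusted p = 0.0028) and held only a pair of weak peaks in exons 11 and 12, at 0.21 and 0.77. Aqp2, Crem, Id2 and Niban1 passed limma with each of the 8 libraries left out in turn. Among the rest, Ache, Eva1b, Ly6e, Fads1, Ddit4l and Atp4a rose, and Tmem52b and Car12, a carbonic anhydrase, fell. Their calls were less stable: Ache and Eva1b lost theirs without dDAVP library 3, Atp4a without dDAVP library 2, 3 or 4, and Tmem52b and Car12 without vehicle library 1 or 2 or dDAVP library 1, 3 or 4. Fads1 passed only without vehicle library 3 or 4, Ddit4l only without vehicle library 2, and Ly6e only without vehicle library 4, when 1 library was left out. Aqp3 RNA rose by 1.02 ± 0.18 and Car15 by 2.31 ± 0.16 (limma adjusted p = 0.0241 and 4.8e-05) and held no member; Avpr2 RNA, at 954 ± 178 and 1450 ± 228 TPM (SD, n = 4 and 4), did not pass (limma adjusted p = 0.199).

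**Figure D5:**
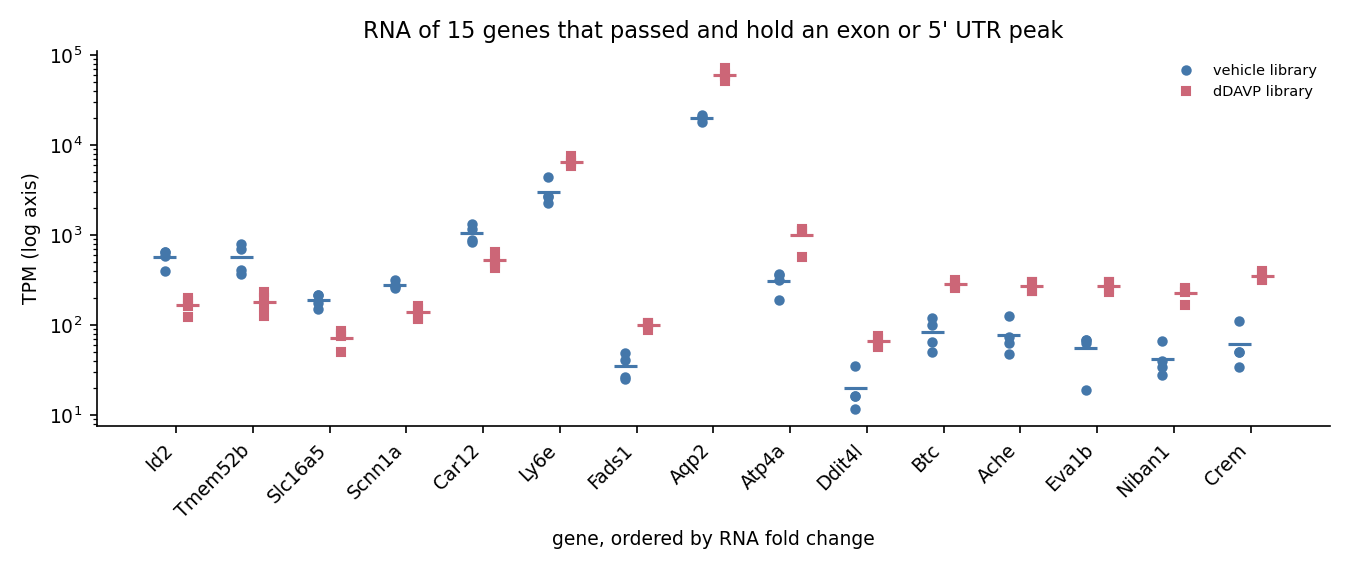
RNA level in TPM (log axis) of 15 of the 16 genes that passed limma and hold an exon or 5' UTR peak, 1 point per library with vehicle as circles and dDAVP as squares and the group mean as a short line, ordered by fold change. None of the 15 shows overlap between its 4 vehicle and 4 dDAVP libraries. They were chosen for passing on these same libraries, so the separation is not separate support.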

How the data were processed

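ATAC-seq signal came from the authors' deposited table of 270806 peaks, which holds log2 signal as means of 3 vehicle (labelled NT there and taken as vehicle) and 3 dDAVP libraries, log2 fold changes, p-values and adjusted p-values. Values per library and ATAC-seq depth were not analysed here. The submitters' processing notes name cutadapt 3.4, Bowtie2, SAMtools, Picard, bedtools, MACS2, deepTools, DiffBind, STAR, RSEM and mm10. RNA-seq values were TPM as deposited by the authors; TPM keeps no depth, and 20 further columns of per-sample values were not used. The library titled CCD-4, dDAVP-3 was matched by its CCD number, as dDAVP library 4.

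Peaks were classed with pandas 2.3.3. RNA was tested with limma 3.58.1 (R 4.3.3; eBayes with trend) on log2(TPM + 1), a pseudocount of 1, over 5035 genes in 4 vehicle and 4 dDAVP libraries, p-values adjusted by Benjamini-Hochberg over all genes and 0.05 as threshold; the fit was tested on simulated data. Fold changes on this scale understate those of low genes. Named peaks were the 4 strongest and the 4 largest called gains and losses with signal in both groups of each class, the 4 strongest called gains and the top peak of each list; named RNAs were host genes that passed and fixed genes; 1 host gene that passed is not reported here; other named items were chosen after their values were seen. Members and lists were chosen with earlier results of these data known. Motifs were planned on 301 bases around peak centres and searched instead in 300-base RefSeq promoter windows. Alternatives were other thresholds, exon limits, pseudocounts, filters and scaling, a replicate block and leaving out each RNA library.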

Additional observations from a re-analysis of the deposited data

Results flagged for a closer look

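Of 32 groups of 4 RNA libraries, 2 held a library far from the others; chance flags about 1 in 20 groups. The lowest dDAVP library of Atp4a, the gastric-type proton pump, had 573.6 TPM, while the other 3 had 1113 to 1157 TPM. The lowest vehicle library of Eva1b had 19.02 TPM, while the other 3 had 63.97 to 69.19 TPM.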

How the results depend on the processing

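At an adjusted p of 0.01, 924 peaks were called lower and 12 higher in place of 1954 and 43. At 2-fold or more, 121 were called lower, and 686 without peaks within 1000 bases of a listed start. The gap between exon 1 or 2 and later exons in the share called lower, 21.3 points, was 10.2 points at an adjusted p of 0.01. It was 11.8 without peaks near listed starts. Taking exon 1 alone gave 27.3 and exons 1 to 3 gave 18.5. Many genes had no listed start, so some peaks at gene starts stayed in the 686 and the 11.8. Among peaks whose host start was listed and over 1000 bases away, 11.5% of 759 in exon 1 or 2 were called lower. The share in later exons was 6.00% of 3152. Within bins of 1 unit of signal the gap was 0, 0, 0.0894, 3.01, -0.22, 6.49, 26.3, 3.85, -11.2 and 12.3 points from the weakest to the strongest, so its sign turned in the bins from 4 to 5 and from 8 to 9; the cause was not tested. The 16 host genes that passed in RNA numbered 4 to 22 when 1 library was left out, and 16 or 17 with pseudocounts of 0.1 or 5, a minimum of 20 TPM or rescaled libraries. With the replicate number as a block, 4 passed; the numbers do not pair the samples, since correlations of same-numbered deviations were 0.19, 0.23, 0.09 and -0.15, and libraries correlated best with their own number only for 1 and 2. ATAC-seq depth is unknown, so no limit of detection could be given for peaks listed at 0.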
